A study of Mus musculus with 8 samples.

Results

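The effect of A66 was averaged over both palmitate states in mouse 3T3-L1 adipocytes. The 4 libraries from cultures given A66 were compared with the 4 libraries from cultures without it, which together are the 8 libraries of the series, with palmitate as an additive term in the model. Of the 43629 genes in the count table, 23120 had a count in at least 1 library and 14587 passed the filter on low counts and were tested. The study asked how adipocyte gene expression responds to loss of p110α activity. 3T3-L1 is an established line of mouse pre-adipocytes that was differentiated with insulin, dexamethasone, isobutylmethylxanthine and rosiglitazone, and all groups share that history. Treatment began on day 8 after induction and lasted 24 h. The groups were untreated cells, A66 at 2 µM, palmitate at 0.5 mM bound to albumin, and palmitate plus A66 at the same doses, with 2 cultures in each group. A lower A66 dose of 1 µM against DMSO stands in the methods, whereas the labels call the controls untreated, so an effect of the vehicle cannot be told apart from one of A66. The p-values measure the spread between cultures of this 1 line only.

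The inhibitor A66 acts on p110α, the catalytic subunit of class I phosphoinositide 3-kinase (PI3K) encoded by Pik3ca. Insulin acts on adipocytes through its receptor, the adaptor proteins IRS1 and IRS2 and PI3K, whose lipid product activates the AKT kinases. AKT in turn holds FOXO transcription factors out of the nucleus, brings the glucose transporter GLUT4 to the cell surface and favours lipid synthesis and protein synthesis.

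Sequencing covered polyadenylated RNA, and the deposited counts per gene were analysed. Library totals ran from 42247091 to 57529803 counts, and 3 counts, taken as the floor of detection, equalled 0.0519 to 0.0707 CPM (counts scaled to a common library total), a limit that covers counting error only. All CPM values carry edgeR's TMM scaling. The first principal component took 19.6% of the variance, and the first untreated library lay lowest on it. A66 acts on a protein and alters no gene, so no transcript can check which libraries received it. Every direction given for A66 rests on the deposited treated and untreated labels alone, the sources used here do not settle the sign, and if those labels were exchanged each rise would be a fall and each fall a rise. The cells carried adipocyte transcripts at high levels in every library, with 2049 to 2547 CPM of Adipoq and 2639 to 3054 CPM of Fabp4. In bulk RNA, fewer cells that express a gene and less of its RNA per cell cannot be told apart. Among RNAs that poly(A) selection mostly removes, ribosomal RNA was higher in the libraries with A66. The 2 mitochondrial ribosomal RNAs and Gm42418, a gene model that overlaps a nuclear rRNA repeat, took 1.54% and 1.69% of the counts in untreated cells, 1.84% and 2.26% under palmitate, 2.28% and 2.77% under A66 and 2.49% and 3.09% under both. All 4 A66 libraries lay above all 4 libraries without it, by a narrow margin between the first A66 and the second palmitate library. Small RNAs took 0.0132% to 0.0149% of the counts without A66 and 0.0147% to 0.0166% with it, with 4 of 176 called, all higher (1.84% of all genes were called higher), and replication-dependent histones 0.0143% to 0.0155% and 0.0146% to 0.0160%, with 0 of 21 called, so the groups overlapped in both. Palmitate and the log2 of that share together accounted for 78.5% of the variation of the A66 term, so effects of A66 and of the amount of carried-over rRNA cannot be fully told apart. A fit with the share as a covariate, added after the data were seen, is given beside the counts of the main lists below. Because so much of the A66 term is shared with palmitate and the covariate, a call can be lost in that fit without a smaller fold change.

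The averaged A66 effect was broad and small. At an adjusted p under 0.05 (edgeR quasi-likelihood test with Benjamini-Hochberg adjustment, used throughout), 613 genes differed, which is 4.2% of the genes tested. Of these, 268 (1.84% of the genes tested) were higher with A66 and 345 (2.37%) were lower. The median absolute log2 fold change of the 613 genes was 0.19, with a range from 0.10 to 2.39, and only 45 of them changed at least 1.5-fold, 17 upwards and 28 downwards. A change of at least 2-fold was found for 20 genes, of which 16 were lower. Palmitate, tested in the same model, altered 618 genes (4.24%), and the median size of these effects was 0.19 on the log2 scale. Over all genes tested the median A66 effect was -0.0023 on the log2 scale. The biological coefficient of variation was 0.0424. With the rRNA share as a covariate, 37 genes were called, of which 32 were among the 613. Without the second A66 library the count was 402, and without the first or second palmitate plus A66 library it was 406 or 403. Genes named below were taken by a rule given with the methods or, where said or where listed there, after their values were seen.

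The average was compared with the values within each palmitate state. Of all genes tested, 1025 (7.03%) had both A66 libraries above both libraries without it within each palmitate state, and 1106 (7.58%) had them below. Among the called genes, 250 of the 268 higher and 311 of the 345 lower genes had this separation. Calls and separation rest on the same 8 libraries, so these counts are no separate support for the calls. The interaction of A66 with palmitate passed the threshold for 1 gene, 0.00686% of those tested, by edgeR's quasi-likelihood test. At an unadjusted p under 0.05 there were 1155 such genes. That gene was Hmox1, which encodes the haem-degrading enzyme haem oxygenase 1 and was named after its value was seen. Hmox1 had 374 and 401 CPM in untreated cells, 352 and 358 under A66, 394 and 393 under palmitate and 494 and 489 under both agents. Its A66 libraries were thus below the untreated ones and above the palmitate ones, and its averaged effect of 0.10 (SE 0.06) did not pass (adjusted p = 0.41, edgeR).

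**Figure D1:**
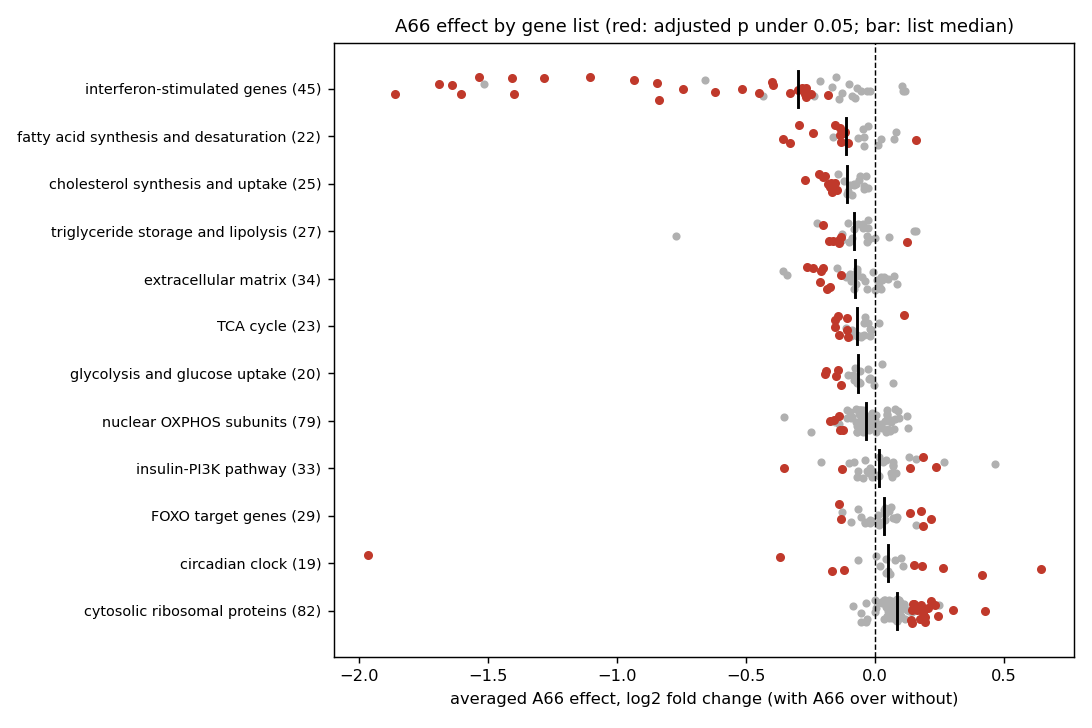
Averaged A66 effect (log2 fold change, with A66 over without, horizontal axis) of the tested members of 12 gene lists, with the number of genes in brackets. Each point is a gene, red where the adjusted p is under 0.05 (edgeR), the bar is the median of the list and the dashed line the median of all genes tested. Interferon-stimulated genes have the lowest median of the 12 lists, -0.30, the point furthest to the left is the clock gene Npas2 at -1.97, and ribosomal proteins lie mostly to the right, with a median of 0.085.

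The largest falls among genes of at least 1 CPM belonged to interferon-stimulated genes, the antiviral effectors and sensors that type I interferon switches on through a transcription factor complex that holds STAT2 and IRF9. Of 45 such genes tested, 26 were called lower and 0 higher, against a background of 2.37% called lower among all genes. The median of the list was -0.30 on the log2 scale, and 42 of the 45 genes were below 0. Within each palmitate state, 25 of the 45 had both A66 libraries below both others, against 7.58% of all genes tested. The 8 genes of that level with the largest fall were all members of this list. With each library left out in turn, between 20 and 26 members were called lower. With the rRNA share as a covariate 6 were, and the median was then -0.45. DESeq2 called 22 lower.

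Many of these genes carry in their promoters the interferon-stimulated response element (ISRE), to which that complex binds. The letters TTTCNNTTT were searched on both strands, overlapping matches included, in RefSeq promoter windows of GRCm38.p6 that run from 250 bases before to 50 bases after the gene's start. A window was found for 32 of the 45 genes, and 21 of them (65.6%) held a match. Of the 26 called members 16 had a window, and 12 of these (75%) held one. The share was 9.53% over the 10388 tested genes with a window and 10.6% over all 32851 windows, 16.7% of 257 genes called lower and 8.38% of 191 called higher. Stretches from 5 called members are shown because they hold the letters that many members share. Each is written 5′ to 3′ on the strand of the gene, with 1 match in capitals, read as written or as its reverse complement.
Ifit1, chr19:34640779-34640837, plus strand: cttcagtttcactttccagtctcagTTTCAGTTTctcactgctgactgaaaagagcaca
Ifit3, chr19:34583348-34583406, plus strand: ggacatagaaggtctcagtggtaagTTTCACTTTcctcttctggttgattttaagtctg
Isg15, chr4:156200856-156200914, minus strand: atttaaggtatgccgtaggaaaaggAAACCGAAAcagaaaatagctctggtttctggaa
Xaf1, chr11:72301587-72301628, plus strand: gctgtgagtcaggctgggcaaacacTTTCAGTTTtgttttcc
Stat2, chr10:128270251-128270309, plus strand: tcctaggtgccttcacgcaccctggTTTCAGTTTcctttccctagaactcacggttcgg
The stretch of Ifit1 holds a second match, in lower case, and that of Isg15 lies in a run of 3 overlapping ones. A match is a description of these letters and not evidence of binding.

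Among the effectors, Ifi44, an interferon-induced antiproliferative protein gene on chromosome 3 of GRCm38 (151730922 to 151749960), had 5.44 and 4.51 CPM in untreated cells, 1.08 and 2.15 under A66, 4.06 and 4.23 under palmitate and 1.05 and 1.39 under both agents. All 4 A66 libraries were below all 4 others. Its averaged log2 fold change was -1.69 (SE 0.16, adjusted p = 2.1e-06, edgeR), which held with the rRNA covariate (-2.25, adjusted p = 0.0050). Usp18, a protease that removes ISG15 from proteins and damps interferon signalling, had 1.91 and 1.22 CPM untreated, 0.811 and 0.533 under A66, 2.32 and 2.35 under palmitate and 0.804 and 0.361 under both agents. Its log2 fold change was -1.61 (SE 0.24, adjusted p = 3.2e-04, edgeR), and again no A66 library reached a library without A66. Rtp4, which encodes an interferon-induced chaperone of membrane receptors, fell from between 1.13 and 2.14 CPM in the 4 libraries without A66 to between 0.206 and 0.682 in the 4 with it (log2 -1.54, SE 0.28, adjusted p = 0.0020, edgeR). The GTPase gene Mx2 had a log2 fold change of -1.40 (SE 0.24, adjusted p = 0.0012, edgeR), with 1.02 to 2.63 CPM without A66 and 0.618 to 0.908 with it. Oasl2, of the oligoadenylate synthetase family, and Ifit1, which binds viral RNA, fell by 1.28 and 1.10 on the log2 scale (adjusted p = 4.1e-04 and 0.0018, edgeR). Isg15, the ubiquitin-like protein that interferon induces, was named outside the rule and fell by 0.75 (SE 0.13, adjusted p = 9.0e-04, edgeR). It had 3.55 to 4.94 CPM without A66 and 2.26 to 2.94 with it.

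**Figure D2:**
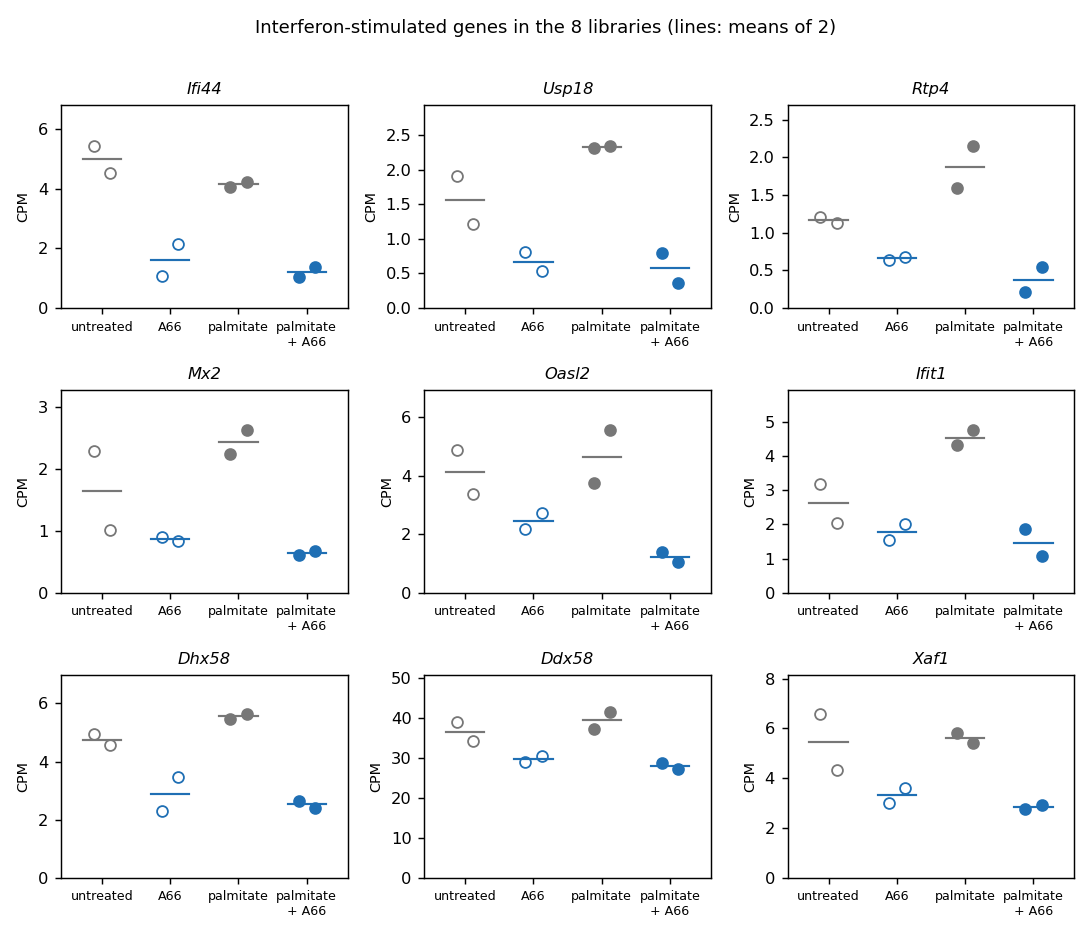
CPM of 9 interferon-stimulated genes in the 8 libraries (vertical axes, each starting at 0; horizontal axis, the group). Grey points are libraries without A66 and blue points libraries with it, filled where palmitate was given, and lines are means of 2. In every panel both A66 libraries lie below both libraries without A66 of the same palmitate state.

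The sensors and transcription factors of the list moved with the effectors, with 6 of 9 called lower and all 9 below 0. Ddx58, the RNA sensor RIG-I, was well expressed, with 38.9 and 34.0 CPM in untreated cells, 28.8 and 30.5 under A66, 37.1 and 41.5 under palmitate and 28.6 and 27.1 under both agents. Its fall of 0.40 (SE 0.05, adjusted p = 9.2e-05, edgeR) separated all 4 A66 libraries from the 4 others. Dhx58, the related sensor LGP2, fell by 0.93 (SE 0.13, adjusted p = 9.2e-05, edgeR). Among genes of the interferon-activated complex, named outside the rule, Stat2 fell by 0.27 (SE 0.05, adjusted p = 0.0011) and Irf9 by 0.40 (SE 0.07, adjusted p = 9.6e-04), in edgeR's test. Irf7, the factor that amplifies interferon production, fell by 0.52 (SE 0.10, adjusted p = 0.0025, edgeR). In the palmitate comparison 1 of the 45 genes of the list was called, higher, while Ddx58 had 0.01 (adjusted p = 0.94) and Ifi44 -0.31 (adjusted p = 0.34), in edgeR's test. In contrast to the interferon list, the 14 genes of MHC class I presentation, some of which interferon also induces, had 0 calls by edgeR and by DESeq2, 1 gene at an unadjusted p under 0.05, and a median of -0.028. Of 19 tested chemokine and NF-kB response genes, Vcam1 and Ccl9 were called higher (10.5%, against 1.84% of all genes) and 0 were called lower, with a median of 0.022. Ccl9, a chemokine gene, had a log2 fold change of 0.35 (SE 0.09, adjusted p = 0.032, edgeR), a call that only 1 of the 8 fits with a library left out kept. None of the chemokine and NF-kB genes was called with the rRNA covariate.

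The circadian clock is a loop in which BMAL1 (encoded by Arntl), with CLOCK or NPAS2, activates the Per, Cry and Nr1d genes and output factors such as Dbp and Tef, whose products in part repress the activators. Of 19 genes tested, 5 were called higher and 4 lower, 47.4% against 4.2% of all genes, and the median of the list was 0.051. Of the 5 activators 3 were lower (Arntl, Clock and Npas2) and 0 higher, whereas among 14 repressors and output genes 5 were higher (Nr1d2, Dbp, Per3, Bhlhe40 and Tef) and 1 was lower (Per1). The other 2 activators were above 0, and the fall of Clock was called in 3 of the 8 fits with a library left out. The difference between the roles was not tested. Nr1d2, which encodes the repressor REV-ERBβ, had 64.1 and 66.7 CPM untreated, 83.7 and 83.2 under A66, 70.9 and 62.8 under palmitate and 95.7 and 90.8 under both agents. It rose by 0.42 (SE 0.04, adjusted p = 2.1e-06, edgeR), all 4 A66 libraries were above the rest, and the call held with the rRNA covariate (0.58, adjusted p = 0.0018). Dbp, a PAR bZIP factor under direct clock control, had 10.8 and 14.4 CPM untreated, 20.2 and 18.9 under A66, 18.7 and 13.3 under palmitate and 25.7 and 24.8 under both agents. Its rise was 0.64 (SE 0.08, adjusted p = 7.6e-05, edgeR), and 0.88 with the covariate (adjusted p = 0.039). All 4 A66 libraries lay above the rest, although the highest palmitate library came close to the lowest A66 library.

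Arntl fell from between 24.0 and 27.6 CPM in the libraries without A66 to between 18.7 and 23.5 CPM with it (log2 -0.37, SE 0.05, adjusted p = 1.8e-04, edgeR). Npas2, a rare transcript near the floor of detection, had 1.15 and 1.22 CPM untreated, 0.463 and 0.170 under A66, 0.622 and 1.04 under palmitate and 0.289 and 0.100 under both agents. Its fold change of -1.97 (SE 0.33, adjusted p = 9.0e-04, edgeR) was the largest fall among these genes, and the A66 libraries did not overlap the others. Per3 rose by 0.27 (SE 0.04, adjusted p = 4.4e-04), Bhlhe40 by 0.18 (SE 0.03, adjusted p = 0.0013) and Tef by 0.15 (SE 0.03, adjusted p = 0.0052), each in edgeR's test. Not all targets of the loop followed, since Per1 fell by 0.17 (adjusted p = 0.042, edgeR), a call lost in 6 of 8 fits with a library left out, Per2 had a value of 0.02 (adjusted p = 0.89), and Nr1d1 had 0.11 (adjusted p = 0.21). The 5 rises were called in each of the 8 fits with a library left out. The falls numbered 2 or 3, and 2 without the second A66 library, the first palmitate plus A66 library or the first untreated library. With the rRNA covariate 2 rises and 0 falls remained called. The E-box letters CACGTG, the site of the activators, were in 5 of 16 windows of clock genes (31.2%), against 11.5% of the tested genes with a window and 7.15% of all windows. Other lists held the letters in like shares, such as 33.3% of aminoacyl-tRNA synthetases and 32.3% of autophagy and lysosome genes, so the share is not particular to clock genes, and among called clock genes 2 of 8 windows held them. All cultures were collected after 24 h, and the clock time of collection is not given in the sources used here. Differences in phase and in level of expression cannot be told apart with 1 time point.

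**Figure D3:**
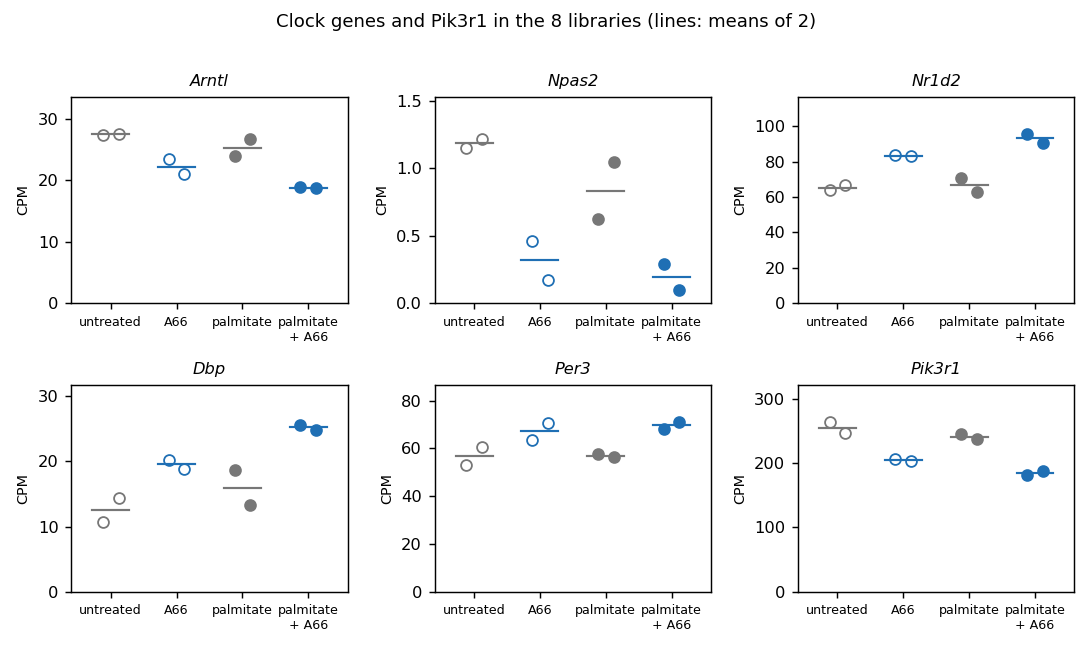
CPM of 5 clock genes and Pik3r1 in the 8 libraries (vertical axes from 0; horizontal axis, the group; grey without A66, blue with it, filled with palmitate; lines, means of 2). Arntl, Npas2 and Pik3r1 are lower and Nr1d2, Dbp and Per3 are higher with A66 in both palmitate states.

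In the insulin and PI3K pathway itself, transcripts of 1 regulatory subunit stood out. Of 33 genes tested, 3 were called higher and 2 lower (15.2%, against 4.2% of all genes), with a median of 0.016. Pik3r1 (chromosome 13, 101680563 to 101768217), which encodes the p85α regulatory subunit that stabilises and restrains p110, had 264 and 247 CPM untreated, 206 and 203 under A66, 245 and 237 under palmitate and 181 and 187 under both agents. It fell by 0.35 on the log2 scale (SE 0.03, adjusted p = 1.4e-06, edgeR), a change of -21.7%, and had the smallest p of all genes called lower. All 4 A66 libraries were below the rest, and the call held with the rRNA covariate (-0.34, adjusted p = 0.047). Pik3r3, the p55γ subunit, fell by 0.13 (SE 0.03, adjusted p = 0.014, edgeR). Pik3ip1, a transmembrane inhibitor of PI3K, had a rise of 0.14 (adjusted p = 0.047, edgeR) that 1 of 8 fits with a library left out kept. Pik3ca, whose product A66 blocks, had 88.6 to 94.4 CPM without A66 and 93.7 to 97.3 with it, and its value of 0.07 (SE 0.03) did not pass (adjusted p = 0.27, edgeR). The groups overlapped.

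Upstream of PI3K, the IGF-1 receptor gene Igf1r rose by 0.23 (SE 0.06, adjusted p = 0.025, edgeR), a call that 3 of the 8 fits with a library left out kept. The insulin receptor gene Insr had a value of 0.06 (adjusted p = 0.27), and the adaptor genes Irs1 and Irs2 had 0.02 (adjusted p = 0.88) and 0.07 (adjusted p = 0.45) in edgeR's test. Over 18 downstream kinases and phosphatases the median was -0.012. Over the whole list 1 or 2 rises and 1 to 3 falls were called with a library left out, and 0 and 1 with the rRNA covariate.

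Genes known as FOXO targets gave 4 rises and 2 falls among 29 tested (20.7%, against 4.2% of all genes), with a median of 0.035. Gabarapl1, an autophagosome protein, rose by 0.18 (SE 0.03, adjusted p = 0.0012), and Gadd45a, a growth arrest gene, by 0.19 (SE 0.04, adjusted p = 0.0058), in edgeR's test. The ubiquitin ligase gene Fbxo32 had a rise of 0.22 (adjusted p = 0.040) that 1 of 8 fits with a library left out kept. The cell cycle inhibitor gene Cdkn1a fell by 0.14 (SE 0.03, adjusted p = 0.014, edgeR). Depp1, an autophagy-linked gene that was named after its value was seen and is on no list, rose by 0.56 (SE 0.12, adjusted p = 0.010, edgeR), with 1.92 to 2.61 CPM without A66 and 2.79 to 3.86 with it. Of the FOXO targets 2 or 3 rises and 0 to 2 falls were called with a library left out. None was called with the rRNA covariate, at a median of -0.021. Gabarapl1 was also the only call among 41 autophagy and lysosome genes (2.44%, near the 1.84% called higher among all genes), whose median was 0.031.

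Many genes of lipid synthesis fell with A66, and for sterol genes the palmitate effect had the other sign. Of 25 genes of cholesterol synthesis and uptake tested, 10 were called lower and 0 higher, all 25 were below 0, and the median was -0.11. That is 40% of the list, against 2.37% called lower among all genes. Palmitate raised 23 of the 25 in the same fit, with a median of 0.42. Both comparisons use the same 8 libraries. Dhcr7, a sterol reductase of the last steps to cholesterol, had 57.3 and 55.5 CPM untreated, 49.0 and 48.0 under A66, 76.3 and 76.6 under palmitate and 66.9 and 64.3 under both agents. It fell by 0.22 with A66 (SE 0.03, adjusted p = 3.1e-04, edgeR) and rose by 0.44 with palmitate (adjusted p = 1.1e-08). Within each palmitate state the A66 libraries were lower, and the palmitate plus A66 libraries lay between the untreated and the palmitate ones. Nsdhl, a C4 demethylation enzyme, fell by 0.20 (SE 0.03, adjusted p = 6.9e-04, edgeR), while palmitate raised it by 0.42. Hmgcs1, a synthase early in the pathway, fell by 0.17 (adjusted p = 9.0e-04), and Sqle, the squalene epoxidase, by 0.18 (adjusted p = 0.0033), in edgeR's test. Srebf2, the transcription factor that drives these genes, had a value of -0.08 (adjusted p = 0.13), and Insig1, which holds that factor in the endoplasmic reticulum, had -0.06 (adjusted p = 0.35). With each library left out, 8 to 12 members were called lower. With the rRNA covariate 0 were, at a median of -0.097.

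Of 22 genes of fatty acid synthesis and desaturation tested, 11 were called lower and 1 higher (54.5%, against 4.2% of all genes), with a median of -0.11. Acsl1, the long-chain acyl-CoA synthetase of adipocytes (chromosome 8, 46471037 to 46536051), had 1747 and 1665 CPM untreated, 1489 and 1405 under A66, 1385 and 1483 under palmitate and 1036 and 1098 under both agents. It fell by 0.33 with A66 (SE 0.04, adjusted p = 3.7e-05, edgeR) and by 0.35 with palmitate (adjusted p = 6.7e-06). The A66 libraries were lower within each state, and the call held with the rRNA covariate (-0.43, adjusted p = 0.037). Elovl6, an elongase, fell by 0.30 (SE 0.04, adjusted p = 9.2e-05), from between 42.7 and 48.6 CPM without A66 to between 34.1 and 39.4 with it, and the groups did not overlap. Thrsp, the lipogenic factor Spot 14, fell by 0.24 (SE 0.04, adjusted p = 0.0015, edgeR). Pnpla3, a lipid droplet protein gene that lipogenic signals induce, fell by 0.36 (SE 0.07, adjusted p = 0.0053, edgeR). Smaller falls were found for Fasn, the fatty acid synthase (-0.13, adjusted p = 0.013, kept in 6 of 8 fits with a library left out), Acly, the ATP citrate lyase (-0.12, adjusted p = 0.018, kept in 4), and Acaca, the cytosolic acetyl-CoA carboxylase (-0.10, adjusted p = 0.036, kept in 0). Scd1, a stearoyl-CoA desaturase, had a value of 0.08 (adjusted p = 0.37), and Srebf1, the lipogenic transcription factor, -0.04 (adjusted p = 0.64). With each library left out, 4 to 9 members were called lower, and fewer than 8 without either A66 library, either palmitate plus A66 library or the second untreated library. With the rRNA covariate 1 was, at a median of -0.090.

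**Figure D4:**
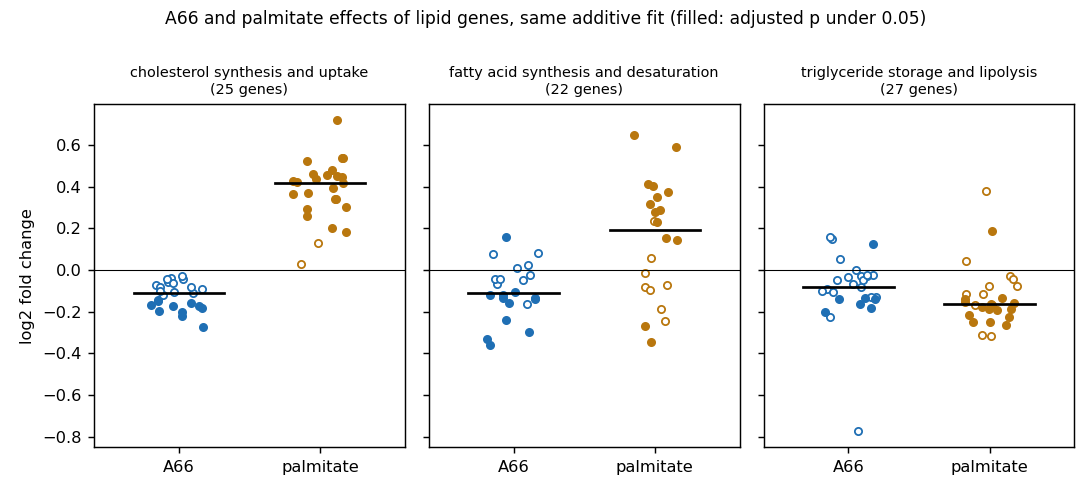
Log2 fold changes of A66 (with over without, blue) and of palmitate (with over without, orange) from 1 additive fit, for the tested genes of 3 lipid lists. Each point is a gene, filled where the adjusted p is under 0.05, and bars are medians. For cholesterol genes the medians are -0.11 with A66 and 0.42 with palmitate.

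Triglyceride storage and lipolysis had 6 genes called lower and 1 higher among 27 (25.9%, against 4.2% of all genes), with a median of -0.080, and palmitate lowered 15 of them at a median of -0.16. Abhd5, the co-activator of adipose triglyceride lipase, fell by 0.20 (SE 0.03, adjusted p = 3.2e-04), from 171 to 185 CPM without A66 to 145 to 167 with it. The droplet coat gene Plin4 fell by 0.18 (SE 0.04, adjusted p = 0.0052, edgeR), whereas Plin2, another droplet coat gene, had a rise of 0.12 (adjusted p = 0.027) that 3 of 8 fits with a library left out kept. Pnpla2, adipose triglyceride lipase itself, had -0.13 (adjusted p = 0.045, kept in 2 of 8 such fits). Between 2 and 7 members of the list were called lower with a library left out, and no more than 3 without the second A66 library, the second palmitate library or any of the 4 palmitate plus A66 and untreated libraries. With the rRNA covariate 0 were, at a median of -0.19.

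Calls in glucose use and the TCA cycle were nearly all falls. Of 20 genes of glycolysis and glucose uptake, 5 were called lower and 0 higher (25%, against 2.37% called lower among all genes), with a median of -0.066. Slc2a4, which encodes GLUT4, had 157 and 155 CPM untreated, 140 and 140 under A66, 134 and 150 under palmitate and 118 and 124 under both agents. It fell by 0.19 (SE 0.04, adjusted p = 0.0021, edgeR), the A66 libraries were lower within each state, and the call held with the rRNA covariate (-0.33, adjusted p = 0.047). G6pdx, which opens the pentose phosphate pathway and supplies NADPH, fell by 0.19 (SE 0.03, adjusted p = 6.4e-04), and Pgam1, phosphoglycerate mutase, by 0.15 (SE 0.03, adjusted p = 0.0053), in edgeR's test. Aldoa, the aldolase, fell by 0.13 (SE 0.03, adjusted p = 0.013, edgeR). Slc2a4 was, with the rRNA covariate, the only 1 of the 5 still called, at a list median of -0.076. In that fit G6pdx had -0.16 (adjusted p = 0.45), Pgam1 -0.21 (adjusted p = 0.26) and Aldoa -0.18 (adjusted p = 0.30), in edgeR's test. In the TCA cycle and its entry, 7 of 23 genes were called lower and 1 higher (34.8%, against 4.2% of all genes), 21 were below 0, and the median was -0.071. Ogdh, a subunit of the oxoglutarate dehydrogenase, fell by 0.16 (SE 0.03, adjusted p = 0.0018), and the pyruvate dehydrogenase genes Pdhx and Pdhb fell by 0.15 and 0.14 (adjusted p = 0.0046 and 0.0062), in edgeR's test. With each library left out 3 to 6 TCA genes were called lower, fewer than 5 except without the first A66 or the first untreated library. With the rRNA covariate 0 were, at a median of -0.090. Ogdh, Pdhx and Pdhb then had -0.14, -0.18 and -0.16 (adjusted p = 0.51, 0.36 and 0.43, edgeR). Fatty acid oxidation had 1 call lower (Hadh, -0.12, adjusted p = 0.037, kept in 2 of 8 fits with a library left out) among 22 genes, a share of 4.55% near that of all genes (2.37% called lower), and a median of -0.050. The count was 0 to 2 in those fits and 0 with the rRNA covariate, at a median of -0.13.

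Among 79 nuclear genes of oxidative phosphorylation (OXPHOS), 5 were called lower and 0 higher (6.33%, against 2.37% called lower among all genes), with a median of -0.036. Ndufv2, a complex I subunit, fell by 0.18 (SE 0.03, adjusted p = 0.0035), and Cycs, cytochrome c, by 0.14 (SE 0.03, adjusted p = 0.0050), in edgeR's test. The count was 2 without either palmitate or either palmitate plus A66 library and 7 without either untreated library. With the rRNA covariate it was 0, at a median of -0.095. Subunits that serve as protein markers of the complexes did not pass, namely Ndufb8 with -0.03 (adjusted p = 0.76), Sdhb with -0.02 (adjusted p = 0.83), Uqcrc2 with -0.04 (adjusted p = 0.60), mt-Co1 with 0.05 (adjusted p = 0.54) and Atp5a1 with -0.06 (adjusted p = 0.35). Ppargc1a, the co-activator of mitochondrial biogenesis, had 55.4 to 63.8 CPM without A66 and 55.8 to 62.9 with it, a value of 0.01 (SE 0.03, adjusted p = 0.91, edgeR). Of the 18 mitochondrial regulators and uncoupling genes tested, 0 were called by edgeR or DESeq2 and 5 had an unadjusted p under 0.05, the smallest that of Nrf1 (0.14, adjusted p = 0.062).

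Of the 13 protein-coding genes of the mitochondrial genome, mt-Nd4l and mt-Nd6 were called higher (15.4%, against 1.84% of all genes) and 0 were called lower, with a median of -0.021. mt-Nd6 (0.21, adjusted p = 0.031, edgeR) is the only one of these coded on the light strand, overlaps mt-Nd5 at its end, and was kept in 2 of 8 fits with a library left out, while mt-Nd4l was kept in 3. None of the 13 was called with the rRNA covariate. mt-Nd5 had -0.09 (adjusted p = 0.15). Together the 13 genes took 9.47% to 10.0% of the counts without A66 and 9.33% to 9.97% with it, so the groups overlapped. The 75 mitochondrial ribosomal proteins had a share called lower, 2.67%, near the 2.37% of all genes, with 2 calls (Mrpl10, -0.13, adjusted p = 0.023, and Mrpl12, -0.16, adjusted p = 0.026), each kept in 2 of 8 such fits and 0 with the rRNA covariate, with a median of -0.034.

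Transcripts of cytosolic ribosomal proteins leaned upwards. Of 82 tested, 20 were called higher and 0 lower (24.4%, against 1.84% called higher among all genes), 76 were above 0, and the median was 0.085. The called members were 13 of 49 large-subunit and 7 of 33 small-subunit genes. Rps21, of the small subunit, had 101 and 116 CPM untreated, 160 and 163 under A66, 118 and 119 under palmitate and 129 and 159 under both agents. It rose by 0.43 (SE 0.06, adjusted p = 9.2e-05, edgeR), and all 4 A66 libraries were above the rest. Rps27a rose by 0.22 (SE 0.04, adjusted p = 6.7e-04), Rps15a by 0.24 (SE 0.04, adjusted p = 0.0011) and Rpl36 by 0.30 (SE 0.06, adjusted p = 0.0049), in edgeR's test. Many processed pseudogenes resemble these genes, so counts of single members are uncertain. Summed over the 82 genes, their share of the counts was 2.75% and 2.89% in untreated cells, 3.12% in both A66 libraries, 3.06% and 2.92% under palmitate and 3.07% and 2.93% under both agents. Thus the summed share was separated without palmitate and overlapped with it. The called count was 13 without the first A66 library and 15 to 23 without any other, and 0 with the rRNA covariate, at a median of 0.083.

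**Figure D5:**
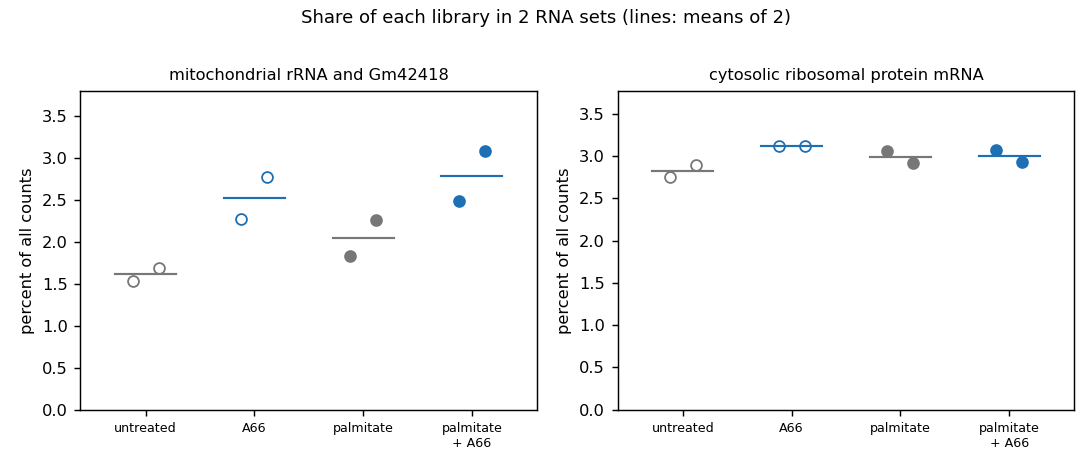
Percent of all counts in each library (vertical axes from 0; horizontal axis, the group) taken by the mitochondrial rRNAs with Gm42418 (left) and by the 82 cytosolic ribosomal protein genes (right). Grey is without A66, blue with it, filled with palmitate, and lines are means of 2. On the left all 4 A66 libraries lie above all others, with 2.28% to 3.09% against 1.54% to 2.26%. On the right the palmitate groups overlap.

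Translation factors gave 4 calls higher and 0 lower among 45 (8.89%, against 1.84% called higher among all genes), with a median of 0.031. Eif4b, a helicase co-factor in initiation, rose by 0.13 (SE 0.03, adjusted p = 0.010, edgeR). Eif1 (0.14, adjusted p = 0.029) and Eif4a2 (0.11, adjusted p = 0.032) were called in 2 and 1 of the 8 fits with a library left out. Among 12 snoRNA host genes, Zfas1 was the only call (8.33%, against 1.84% called higher among all genes). It had 24.8 to 28.1 CPM without A66, 32.0 to 32.8 with it, and a rise of 0.27 (SE 0.04, adjusted p = 7.8e-04, edgeR). The 20 aminoacyl-tRNA synthetase genes had 0 calls by edgeR and DESeq2, 2 genes at an unadjusted p under 0.05, and a median of 0.010, which was -0.0061 with scaling by library size alone. Among the RNAs that poly(A) selection mostly removes, mt-Rnr1 and mt-Rnr2, the mitochondrial rRNAs, rose by 0.59 and 0.52 (adjusted p = 1.1e-05 and 1.1e-04, edgeR). Gm42418 rose by 0.58 (adjusted p = 6.3e-05, edgeR). Rpph1, the RNA of ribonuclease P, and the small RNA models Gm23935 and Gm24270 were among the 8 largest rises of called genes with at least 1 CPM, with 0.96, 0.74 and 0.70. Rpph1 was called in 3, Gm23935 in 8 and Gm24270 in 4 of the 8 fits with a library left out, and with the rRNA covariate Rpph1 had 0.18 (adjusted p = 0.94, edgeR) and the other two were below 0. With that covariate 0 translation factors, snoRNA hosts and synthetases were called.

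Several collagens fell. Of 34 extracellular matrix genes, 8 were called lower and 0 higher (23.5%, against 2.37% called lower among all genes), with a median of -0.076. Col6a2, a chain of the microfibrillar collagen VI that surrounds adipocytes, had 1036 and 1016 CPM untreated, 900 and 917 under A66, 971 and 1078 under palmitate and 814 and 844 under both agents. It fell by 0.24 (SE 0.04, adjusted p = 2.9e-04, edgeR), and by 0.39 with the rRNA covariate (adjusted p = 0.020), and no A66 library reached the rest. The other chains Col6a1 and Col6a3 fell by 0.19 (adjusted p = 0.0025) and 0.13 (adjusted p = 0.016). Col18a1, a basement membrane collagen, fell by 0.21 (SE 0.03, adjusted p = 2.2e-04), Col5a1 by 0.18 (SE 0.03, adjusted p = 9.0e-04) and the fibrillar Col1a1 by 0.21 (SE 0.04, adjusted p = 0.0034), in edgeR's test. With each library left out 6 to 9 members were called lower, and 4 with the rRNA covariate. The gene with the smallest p of all 14587 was Mmp11, a matrix metalloproteinase, which rose. It is not a member of the list, in which 0 of 12 proteases and inhibitors were called. Mmp11 had 443 and 440 CPM untreated, 581 and 605 under A66, 407 and 464 under palmitate and 594 and 624 under both agents, and all 4 A66 libraries were above the rest. Its log2 fold change was 0.45 (SE 0.04, adjusted p = 4.3e-07, edgeR), and 0.32 with the rRNA covariate (adjusted p = 0.064).

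Of 12 adipocyte markers, Slc2a4, Retn and Cidec were called lower (25%, against 2.37% called lower among all genes) and 0 were called higher, with a median of -0.031. Of these Slc2a4 alone was called with the rRNA covariate. Retn, the adipokine resistin, fell by 0.20 (SE 0.04, adjusted p = 0.0083, edgeR), and Cidec, a droplet fusion protein, had -0.16 (adjusted p = 0.045, kept in 2 of 8 fits with a library left out). Adipoq had 0.03 (adjusted p = 0.74) and Fabp4 0.05 (adjusted p = 0.54). Among 10 tested preadipocyte markers, only Ly6a was called (10%, against 1.84% called higher among all genes), with a median of -0.092 over the list. Ly6a had 0.27 (adjusted p = 0.049, edgeR), kept in 3 of 8 such fits. Of 17 adipokines and secreted IGF factors, 3 were called lower and 0 higher (17.6%, against 2.37% called lower among all genes). Beside Retn they were the IGF-binding proteins Igfbp3 (-0.15, adjusted p = 0.026, edgeR) and Igfbp7 (-0.11, adjusted p = 0.044, edgeR), each kept in 2 of 8 such fits. None of the preadipocyte markers and of these secreted factors was called with that covariate. Of the markers of other cell types, 3 of 10 brown and beige markers, 4 of 10 macrophage markers and 3 of 8 endothelial markers passed the filter, with 0 calls in edgeR's test. At an unadjusted p under 0.05 there were 1, 1 and 0, and DESeq2 called 1 macrophage marker, Cd14. That gene had 7.36 to 9.03 CPM without A66 and 8.27 to 10.2 with it, both A66 libraries lay above both others within each palmitate state, and its value was 0.27 (adjusted p = 0.057, edgeR) and 0.07 with the rRNA covariate (adjusted p = 0.93). Cox8b, a brown adipocyte gene, had 11.9 to 19.2 CPM and a value of -0.19 (adjusted p = 0.29, edgeR), and the groups overlapped. The defining genes Ucp1, Prdm16, Adgre1, Ptprc, Cdh5 and Kdr were under the filter. The 10 macrophage markers summed to 0.00134% to 0.00165% of the counts without A66 and 0.00142% to 0.00186% with it, and their part in the results was not tested.

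Of 24 genes of the ATF4 amino acid response, 4 were called lower and 0 higher (16.7%, against 4.2% of all genes called in either direction), with a median of -0.0097. Nupr1, a stress-induced chromatin protein, fell from between 240 and 251 CPM without A66 to between 198 and 217 with it (-0.24, SE 0.03, adjusted p = 9.2e-05, edgeR). Slc7a5, the large neutral amino acid transporter, fell by 0.22 (SE 0.03, adjusted p = 2.2e-04), and Ddit4, an inhibitor of mTORC1, by 0.35 (SE 0.06, adjusted p = 0.0013), in edgeR's test. Among 21 genes of the unfolded protein response the only call was Herpud1 (4.76%, against 1.84% called higher among all genes). Herpud1 had 0.13 (adjusted p = 0.015, edgeR), kept in 5 of 8 fits with a library left out. Of 18 NRF2 antioxidant genes, Gsta4, Ftl1 and Gclm were called higher and 0 lower (16.7%, against 1.84% called higher among all genes), with a median of 0.019. Gsta4 rose by 0.16 (SE 0.03, adjusted p = 0.0094, edgeR). Ftl1 and Gclm were called in 3 and 2 of the 8 fits with a library left out. Of 24 immediate early genes 3 were higher and 1 lower (16.7%, against 4.2% of all genes), with a median of 0.085. Dusp4, a phosphatase that ERK signalling induces, rose by 0.33 (SE 0.06, adjusted p = 0.0011), and Ier3 by 0.46 (SE 0.10, adjusted p = 0.0058), while the ERK inhibitor gene Spry4 fell by 0.21 (SE 0.05, adjusted p = 0.015), in edgeR's test. In the cell cycle list, 1 of 29 genes rose (Mcm7, 0.19, adjusted p = 0.0042) and 1 fell (Mcm5, -0.37, adjusted p = 0.027), a share of 6.9% against 4.2% of all genes, the first called in 8 and the second in 2 of the 8 fits with a library left out. The ATF4, unfolded protein response, NRF2, immediate early and cell cycle lists held 0 calls with the rRNA covariate. In several lists with few calls 1 library could remove most of them: with a library left out, 0 to 2 chemokine and NF-kB genes, 1 to 3 NRF2 genes, 1 to 3 translation factors, 1 to 3 adipocyte markers, 0 to 3 adipokines and IGF factors and 0 to 2 mitochondrial ribosomal proteins were called.

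Most called genes, 464 of the 613, belonged to none of the 33 lists. Several of them were among the smallest p. Maoa, the mitochondrial monoamine oxidase A that degrades catecholamines, had 335 and 339 CPM untreated, 412 and 420 under A66, 388 and 329 under palmitate and 492 and 466 under both agents. It rose by 0.36 (SE 0.04, adjusted p = 1.7e-05, edgeR), and by 0.54 with the rRNA covariate (adjusted p = 0.0030), with all 4 A66 libraries above the rest. Tmem140 rose by 0.37 (SE 0.04, adjusted p = 9.3e-06), and Pappa, a protease that frees IGF from its binding proteins, by 0.27 (SE 0.03, adjusted p = 4.7e-05), in edgeR's test. On the other side, Sult1a1, a phenol sulfotransferase, fell by 0.35 (SE 0.04, adjusted p = 7.3e-06), the matrix-binding Olfml2b by 0.39 (SE 0.04, adjusted p = 9.3e-06), the synapsin Syn2 by 0.39 (SE 0.04, adjusted p = 1.0e-05) and the mitochondrial carbonic anhydrase Car5b by 0.29 (SE 0.03, adjusted p = 1.1e-05), in edgeR's test. In all 4 of these genes both A66 libraries lay below both others within each palmitate state. The carboxypeptidase gene Cpm had 15.0 and 16.1 CPM untreated, 8.32 and 7.42 under A66, 8.52 and 8.73 under palmitate and 5.07 and 6.87 under both agents. It fell by 0.77 with A66 (SE 0.10, adjusted p = 5.3e-05) and by 0.65 with palmitate (adjusted p = 2.2e-04). Prodh, the proline dehydrogenase, fell by 0.52 (SE 0.06, adjusted p = 5.3e-05), and Fkbp5, a glucocorticoid-induced co-chaperone, by 0.26 (SE 0.03, adjusted p = 7.1e-05), while the kinase gene Pim1 rose by 0.54 (SE 0.10, adjusted p = 0.0016), all 3 named after their values were seen. Prodh, Fkbp5, Pim1, Pappa and Olfml2b were still called with the rRNA covariate. Not called in that fit were Tmem140 (0.40, adjusted p = 0.0502), Sult1a1 (-0.36, adjusted p = 0.061), Syn2 (-0.41, adjusted p = 0.064), Car5b (-0.28, adjusted p = 0.10) and Cpm (-0.81, adjusted p = 0.14), in edgeR's test.

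Among the rises of genes with a low level, Camk2n1, an inhibitor of CaMKII, had 0.707 to 0.906 CPM without A66 and 1.30 to 1.57 with it (0.76, SE 0.19, adjusted p = 0.020, edgeR). Ankrd1, a cardiac ankyrin repeat protein that stretch and YAP induce, rose by 0.67 (SE 0.15, adjusted p = 0.0090, edgeR). Camk2n1 was called in 3 and Ankrd1 in all of the 8 fits with a library left out. The bundling protein gene Fscn1 rose by 0.16 (SE 0.04, adjusted p = 0.013), whereas Acss2, an acetyl-CoA synthetase, had -0.16 (adjusted p = 0.031) and Pcyt2, of phosphatidylethanolamine synthesis, -0.13 (adjusted p = 0.043), calls that 3 and 1 of those 8 fits kept.

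In CPM, which is not per length, the called genes lay above the rest, with a median of 72.9 CPM for those higher and 61.0 CPM for those lower, against 20.1 CPM over all genes tested. The median transcript length was 1058 nucleotides for genes higher with A66, 1608 for genes lower and 1390 for all, and the median GC content was 49.9%, 52.1% and 50.2%. Protein-coding genes made up 584 of the 613. In the promoter windows, the ETS letters CCGGAAGT were found for 2.09% of genes called higher and 2.72% of genes called lower, against 9.06% of the tested genes with a window and 3.89% of all windows.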

How the data were processed

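The authors aligned stranded, oligo-dT selected reads to GRCm38 with TopHat 2.0.11 and counted them per gene with HTSeq. The strand setting and the annotation release are not given in the sources used here. The deposited values are raw counts per gene. The table also holds 6 columns of the authors' DESeq2 comparison (mean of normalized counts, log2 fold change, its standard error, Wald statistic, p and adjusted p), which were not used. Library totals ran from 42247091 to 57529803 counts, and depth limits mainly genes near the floor.

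Genes were filtered with filterByExpr of edgeR 4.0.16 (minimum count 10, 4 groups), scaled by TMM and tested in R 4.3.3 with the quasi-likelihood test of an additive model of palmitate and A66, and of a model with their interaction. Adjustment was by Benjamini-Hochberg over 14587 genes, with a call at 0.05. Fold changes are with over without A66. DESeq2 1.42.0, other scalings and filters, GC and length corrections, a replicate block and leaving out each library were alternatives. In counts simulated for the A66 main effect over 14587 genes, 30 of 50 genes changed by 0.25 on the log2 scale were recovered, 36 of 50 at 0.5, 43 of 50 at 1 and 49 of 50 at 2, with 10 false calls among 168.

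The rule for named genes took the 8 largest rises and falls among called genes of at least 1 CPM, the 6 smallest p in each direction, up to 3 called members per list with the smallest p, Pik3ca and the mouse genes that the study names. Chosen outside it, after their values were seen, were Isg15, Stat2, Irf7, Irf9, Npas2, Per1, Per2, Per3, Clock, Nr1d1, Bhlhe40, Tef, Hmgcs1, Sqle, Srebf1, Srebf2, Insig1, Fasn, Acly, Acaca, Scd1, Pnpla2, Pnpla3, Col1a1, Col6a1, Col6a3, Igf1r, Pik3ip1, Insr, Irs1, Irs2, Fbxo32, Rpl36, Rps15a, Depp1, mt-Rnr2, Gm42418, Adipoq, Fabp4, Prodh, Fkbp5, Pim1 and Hmox1. The members and lists were chosen with earlier results of these data known. Lists are described by counts and medians, without a test. Promoter windows come from RefSeq (GRCm38.p6), and 10388 tested genes matched one. Some genes that the rule takes are not reported here.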

Additional observations from a re-analysis of the deposited data

Results flagged for a closer look

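The effect of A66 on Hmox1 differed between the palmitate states. The difference, with palmitate minus without, was 0.45 on the log2 scale (adjusted p = 0.0019, edgeR quasi-likelihood test of the interaction), with 2 libraries in each group. No other gene passed in that test of 14587 genes.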

How the results depend on the processing

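The count of called genes, 613, was 610 with RLE size factors, 691 with DESeq2, 615 with at least 10 counts in every library and 725 when averaged from the model with the interaction. It was 621 with a GC correction and 662 with a length correction. Without a filter 886 genes were called, 407 of them higher. With library size alone 676 were called, 201 higher and 475 lower, so that 29.7% were higher against 43.7% in the reported test. Requiring a change of at least 1.2-fold left 188, with 87 higher and 101 lower. With the rRNA share as a covariate, an alternative chosen after seeing the data, 37 were called, 13 higher and 24 lower, and leaving out rRNA, small RNA and mitochondrial genes, chosen likewise, gave 617 and no value for the mitochondrially encoded genes. Leaving out each library gave 402 to 563 calls, 166 to 243 higher and 208 to 320 lower. The lowest count of higher genes came without the second A66 library. Lower genes numbered 208 without the first and 220 without the second palmitate plus A66 library, and 227 without the second palmitate library. Of 128 named and called genes, 83 were called in all 8 of these fits. With the replicate number as a block 603 were called, 586 of them among the 613, and 602 with a GC correction added. Same-numbered libraries shared little deviation over 11957 genes, with correlations from -0.082 to 0.110, which cannot exclude a pairing that affects some genes. The shares of rRNA and of small RNA were higher in the second library than in the first in every group. With the rRNA covariate the sign turned for mt-Rnr2 (-0.044) and Gm42418 (-0.0058), but both are part of the covariate, which holds their values close to 0 by construction. The sign also turned in that fit for Gm23935 (-0.19), Gm24270 (-0.39), mt-Nd6 (-0.027), Acss2 (0.012), mt-Nd5 (0.0037) and Per2 (-0.087). It likewise turned for Irs1 (-0.026), Irs2 (-0.13), Adipoq (-0.081) and Fabp4 (-0.091). With library size alone it turned for Ppargc1a (-0.0040) and Irs1 (-0.00031). With a library left out it turned for Ppargc1a (lowest -0.0037, highest 0.029), Ndufb8 (-0.059 to 0.0093), Per2 (-0.012 to 0.044) and Irs1 (-0.019 to 0.041). The cause was not tested.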
